A study of Homo sapiens with 4 samples.

Results

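The endothelin system of ES-2 cells was read as the rows of its peptide genes (EDN1, EDN2), its receptor genes (EDNRA, EDNRB) and its converting enzyme genes (ECE1, ECE2). Of these 6 symbols, EDN1, EDNRA, EDNRB and ECE1 were found among the 19626 genes of the tables, and EDN2 and ECE2 were not analysed here. The family was chosen by the fall of EDN1 RNA after knockdown. The values of EDN1 in this contrast, its fitted interval and call included, are therefore a description, and nothing is concluded from them. The other members entered through the family name.

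ES-2 is an established ovarian cancer line, labelled as clear cell carcinoma, that carries an endogenous YAP1-MAML2 (YM) fusion. All libraries came from cells infected with lentivirus and, by their labels, harvested 96 h after the first infection. The paper gives a shorter time of transduction for these RNA samples, and the time in the labels is used here. In shCtl (n = 2 biological replicates) the virus expressed a non-targeting shRNA, and in shM2-3 (n = 2) a single shRNA whose target lies in the part of MAML2 that the fusion retains. Both native MAML2 and the YM fusion can therefore be depleted, and 1 line with 1 shRNA limits the model. The tables hold estimated read counts and RPKM, the count scaled by the length of the gene and the reads of the library.

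Endothelins are short vasoactive peptides cut from longer precursors. A furin-type convertase first releases an inactive intermediate, and endothelin-converting enzyme then cleaves it to the active peptide, which binds the G protein-coupled receptors ETA (EDNRA) and ETB (EDNRB). In blood vessels the peptide is made mainly by endothelial cells and constricts smooth muscle through ETA, whereas ETB on endothelium releases nitric oxide and clears the peptide. In ovarian carcinoma, endothelin-1 acting on ETA is known as a growth and invasion signal of the tumour cells themselves.

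EDN1 (chr6:12290361-12297194 of hg38, plus strand, 5 exons in GENCODE) starts behind a compact promoter, printed here because it is the promoter of the member with the greatest loss of reads. The following line gives the 250 bases upstream of that start (chr6:12290111-12290360, plus strand, RefSeq GRCh38.p14). Capitals mark, from left to right, a GATA match on the opposite strand, a hypoxia response core on the opposite strand, an AP-1-like heptamer and the TATA box.
EDN1: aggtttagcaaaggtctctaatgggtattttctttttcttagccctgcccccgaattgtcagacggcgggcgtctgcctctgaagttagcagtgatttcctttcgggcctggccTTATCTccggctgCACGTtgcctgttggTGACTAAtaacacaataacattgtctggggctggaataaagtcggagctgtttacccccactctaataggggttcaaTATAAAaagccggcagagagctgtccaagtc

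The first bases of these matches lay at -136, -123, -108 and -31 from the start, and they did not overlap each other. Both strands were searched for the TEAD letters GGAATG, for the AP-1 letters TGANTCA, for the letters AGATAA of the GATA factors, for the hypoxia core ACGTG and for the TATA box, TATAAA. The AP-1-like heptamer TGACTAA was added once the window had been read. The search covered the 250 bases before and the 50 after each start, so for EDN1 it ran 50 bases past the printed sequence. Among the 35116 RefSeq windows cut in the same way, 14.0% held the TEAD letters, 7.71% the AP-1 letters, 10.3% the GATA letters, 21.4% the hypoxia core, 11.5% the TATA box and 1.90% the added heptamer. This EDN1 window held neither the TEAD nor the AP-1 letters.

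GGAATG, the sequence recognised by the TEAD factors to which YAP1 binds, was found on the opposite strand in 1 window of EDN1 and 1 of EDNRB. Both are shown in 30 bases, with the match in capitals. The first belongs to an upstream EDN1 start at position 12290014 (chr6:12289873-12289902, plus strand, match at -129). The second belongs to the EDNRB start at position 77918831 (chr13:77918891-77918920, minus strand, match at -77).
EDN1 upstream start: gacgagggagagCATTCCcttgtttgactg
EDNRB: tgggacccccatCATTCCctccctggcaca
The single EDNRA window and the 4 ECE1 windows held none of the letters searched. The hypoxia core also occurred in the window of a further upstream EDN1 start and in both EDNRB windows. A match of this kind describes the sequence only, and binding was not measured here.

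EDN1, which encodes the precursor of endothelin-1, was read 385 and 393 times in the shCtl libraries but only 15 and 6 times in the shM2-3 libraries (counts). Its RPKM was 8.08 and 8.11 in shCtl and 0.257 and 0.114 in shM2-3. The groups stood far apart, and the pair of control values was closer together than the pair after knockdown. Mean RPKM was 8.09 ± 0.0218 (SD, n = 2) against 0.186 ± 0.101 (SD, n = 2). After scaling by library size, shCtl held 40.9 times the counts of shM2-3, with an exact interval from counting error alone of 26.6 to 66.4. The fitted log2 fold change was -5.34 (95% interval -5.87 to -4.81), and 11 of the 12157 tested genes had a lower one. With so few reads left, the size of the change rested on single libraries: leaving out shM2-3 replicate 1 gave -6.05, and leaving out replicate 2 gave -4.90.

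In terms of rank, EDN1 was near the middle of the tested genes in control cells, with 53.6% and 53.5% of them below its RPKM. After knockdown it ranked at 0.765% and 0.304%. EDN1 passed the expression limit only through shCtl, and any gene kept in this way ranks low after knockdown, so these ranks are a description. A bulk library cannot tell fewer EDN1-expressing cells from less EDN1 RNA in each cell.

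**Figure D1:**
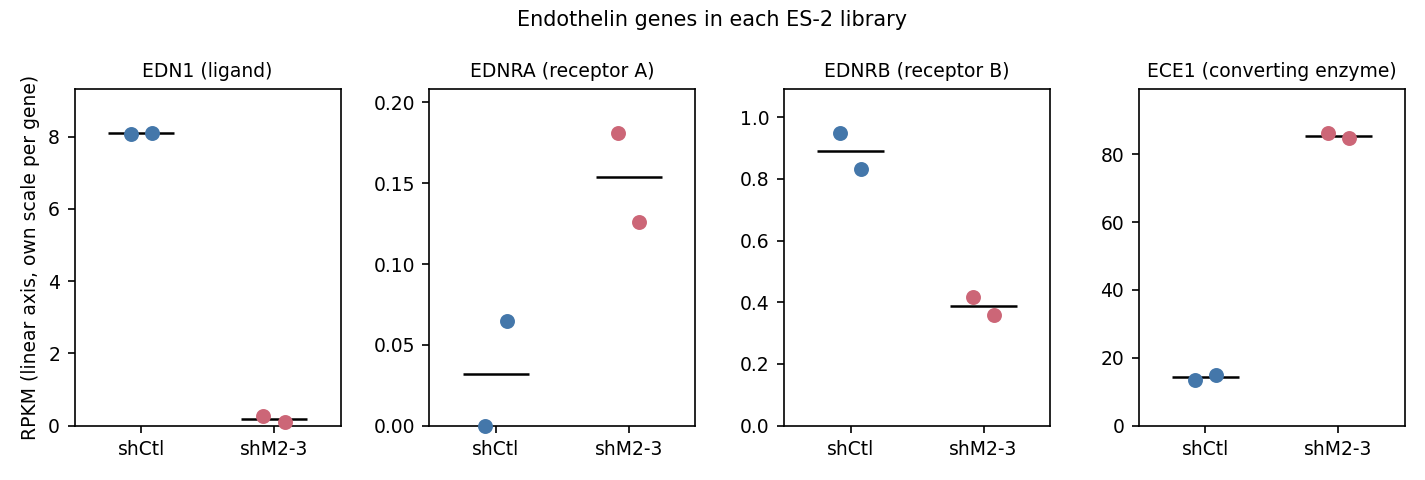
RPKM (linear axis, a scale of its own for each gene) of EDN1, EDNRA, EDNRB and ECE1 in the shCtl and shM2-3 libraries, with 1 point per library and the group mean as a line. EDN1 drops from a mean of 8.09 to 0.186 and ECE1 climbs from 14.3 to 85.5, while both receptor genes stay below an RPKM of 1 throughout.

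ECE1 encodes the membrane metalloprotease that makes active endothelin-1 (chr1:21217247-21345572, minus strand, 19 exons). Its counts were 1756 and 1979 in the controls, against 13690 and 12170 after knockdown. Its RPKM was 13.5 and 15 in the control libraries and 86.3 and 84.7 after knockdown, so both shM2-3 libraries lay far above both controls. The mean rose from 14.3 ± 1.04 to 85.5 ± 1.10 (SD, n = 2 each). The log2 fold change was 2.65 (SE 0.0501, 95% interval 2.54 to 2.76, adjusted p = 3.07e-14, edgeR quasi-likelihood F-test, Benjamini-Hochberg over all tested genes). Among the tested genes 174 had a higher one.

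EDN1 and ECE1, the peptide gene and the enzyme gene, were the members above the expression limit (RPKM above 1 in at least 1 library), and they changed in opposite directions. A gene was called at an adjusted p of 0.05 or less and a change of at least 2-fold. By this rule 1 of the 2 tested members was called lower and 1 higher, where 8.93% of all tested genes were called lower and 9.24% higher. The call of EDN1 is what chose the family, so nothing is read from that count.

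Since RPKM is scaled to gene length, the RNA levels of the enzyme gene and the peptide gene can be set side by side within a library. Neither the enzyme nor its peptide substrate was measured. The ratio of ECE1 to EDN1 in RPKM was 1.68 and 1.85 in shCtl. It was 335 and 745 in shM2-3. The spread of the latter pair follows the 15 and 6 counts of EDN1 on which it rests. The fall of EDN1 chose the family, so a rise of this ratio was given in advance and is a description only. ECE1 moved from above 68.9% and 71.4% of tested genes to above 96.3% and 96.1% of them.

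EDNRA encodes the ETA receptor, which couples to calcium release and contraction (chr4:147480917-147544954, plus strand, 8 exons). Its counts were 0 and 8 in the controls against 27 and 17 after knockdown, which is an RPKM of 0 and 0.0645 against 0.181 and 0.126. All of its control reads came from shCtl replicate 2, although both shM2-3 libraries were above both controls. Scaled by library size, shM2-3 held 4.98 times the counts of shCtl (exact counting interval 2.32 to 12.3). Without shCtl replicate 1 the log2 ratio of mean RPKM was 1.25, against 2.25 with all libraries.

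EDNRB encodes the ETB receptor (chr13:77895481-77975529, minus strand, 7 exons), and it had more reads than EDNRA in every library. Its counts were 108 and 96.2 in the controls against 58 and 45 after knockdown. Its RPKM was 0.949 and 0.831 in the control libraries, just under the limit, and 0.417 and 0.357 after knockdown. Both shM2-3 libraries were below both controls, and shCtl held 2.19 times the scaled counts of shM2-3 (exact counting interval 1.72 to 2.80).

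Neither receptor gene entered the test with the RPKM limit. When every gene in the tables was tested instead, EDNRB was called lower at a log2 fold change of -1.16 (SE 0.258, 95% interval -1.67 to -0.66). In that fit EDNRA was called higher at 2.25 (SE 0.787). Of the genes tested there, 7.76% were called lower and 8.45% higher. With edgeR's own count filter the calls had the same direction for both receptor genes, against 10.0% of genes called lower and 10.9% higher. The adjusted p (edgeR) was 2.10e-05 and 0.00138 for EDNRB and 0.00951 and 0.0254 for EDNRA in these fits.

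The balance of the receptor genes rests on the few reads of EDNRA. EDNRB exceeded EDNRA by 12.9 times in RPKM in shCtl replicate 2 and by 2.30 and 2.84 times in the shM2-3 libraries, whereas shCtl replicate 1 gave no ratio because EDNRA was at 0. At 27 counts or fewer per library, EDNRA is too sparsely read for its level to be ranked between libraries of a group.

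The libraries do not keep strand, so reads from an antisense gene cannot be told from those of the gene it overlaps. The GENCODE annotation places ECE1-AS1 opposite ECE1 and OBI1-AS1 opposite EDNRB. ECE1-AS1 had between 1 and 14 counts per library, against at least 1756 for ECE1. OBI1-AS1 had between 2.15 and 8.38 counts against at least 45 for EDNRB. Another antisense RNA gene annotated opposite ECE1 was not analysed here, so its reads cannot be set beside those of ECE1. On the same strand, the pseudogene GTF2F2P1 and another annotated gene overlap EDNRA, and RN7SL810P and another RNA gene overlap EDNRB. These were not analysed here either, so their reads cannot be set beside those of the receptor genes. EDN1 overlapped no other gene.

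Enzymes that form or break down endothelin were examined next, from a list of 12 genes. Of these, 11 were in the tables and 7 were tested. FURIN, CTSA, MMP2 and CPE were called higher, MME was called lower, and PCSK7 and IDE did not pass. Over all tested genes 9.24% were called higher and 8.93% lower. Of the 7, CPE passed the expression limit only through shM2-3, where it was high, so nothing is read from the count.

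On the forming side, FURIN, a convertase that cuts the precursor, had an RPKM of 15.7 and 16.3 in shCtl and 41.5 and 40.6 in shM2-3. FURIN rose by 1.42 on the log2 scale (95% interval 1.33 to 1.52). PCSK7, another convertase of that family, had 4.34 and 5.21 against 8.27 and 7.51 and reached 0.79, below the fold limit. MMP2, a gelatinase that can also cut the endothelin intermediate, went from 43.3 and 44.4 to 215 and 216 RPKM (log2 fold change 2.36, 95% interval 2.28 to 2.45). Both shM2-3 libraries were above both controls for all of these genes, which held for 38.9% of all tested genes, with 47.1% below in both. After knockdown MMP2 had the highest RPKM of the list.

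On the breakdown side, MME (neprilysin), a membrane peptidase that degrades endothelin-1, was called in the opposite direction to the other called genes of the list. MME fell from an RPKM of 61.3 and 58.9 to 11.8 and 12.3 (log2 fold change -2.25, 95% interval -2.35 to -2.15). CTSA, the lysosomal carboxypeptidase also known as deamidase that inactivates endothelin-1, rose from 74.5 and 77.4 to 188 and 194 RPKM (1.40, 95% interval 1.31 to 1.49). IDE, a zinc protease of small peptides, had 7.40 and 7.34 against 5.78 and 5.95, and its log2 fold change of -0.26 (95% interval -0.40 to -0.13) was also negative but below the fold limit. MME thus had 4.53 and 3.93 times the RPKM of ECE1 in shCtl and 0.137 and 0.145 times in shM2-3.

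CPE, a carboxypeptidase that trims peptide precursors after convertase cleavage, was low in all libraries and passed the expression limit only through shM2-3. Its counts were 9 and 37 in the controls against 158 and 119 after knockdown, with a log2 fold change of 2.44 (95% interval 1.57 to 3.31), and 2.41 when all genes were tested without the limit. In RPKM the control libraries (0.149 and 0.602) differed by more than those after knockdown (2.14 and 1.78). The log2 fold change was 1.77 without shCtl replicate 1 and 3.76 without shCtl replicate 2. The adjusted p (edgeR) was 5.16e-12 for FURIN, 1.14e-14 for MMP2, 6.06e-14 for MME, 2.58e-12 for CTSA and 9.77e-05 for CPE.

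**Figure D2:**
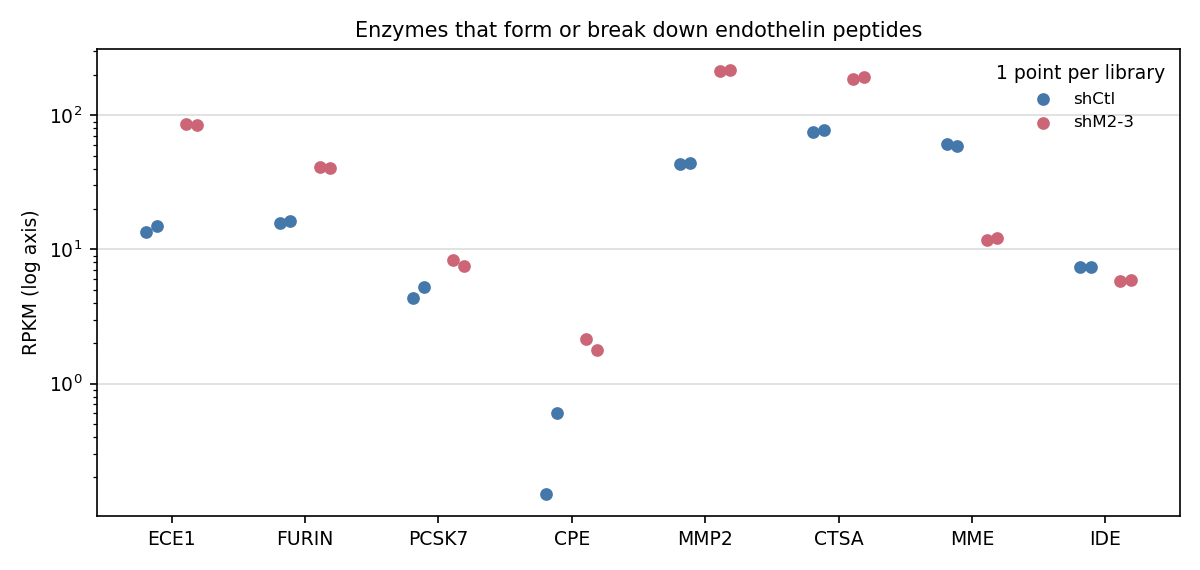
RPKM on a log axis of ECE1 and the 7 tested genes of endothelin formation and breakdown, 1 point per library. ECE1, FURIN, CPE, MMP2 and CTSA lie higher in both shM2-3 libraries, MME lies lower (11.8 and 12.3 against 61.3 and 58.9), and PCSK7 and IDE differ by less than 2-fold.

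Of the closest relatives of the family, EDN3 and ECEL1 were not analysed here, and GPR37L1 had at most 3 counts in any library. GPR37, an orphan receptor related in sequence to the endothelin receptors, had an RPKM of 0.886 and 0.634 in shCtl and 1.96 and 1.86 in shM2-3. It passed the expression limit only through shM2-3, where it was high, and was called higher at a log2 fold change of 1.40 (95% interval 1.00 to 1.79, edgeR adjusted p = 1.11e-05, and 1.37 when all genes were tested without the limit). On the log2(RPKM + 1) scale GPR37 changed by 0.73 and was no longer called.

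Downstream of the receptors lie, among others, the G proteins, phospholipase C, the calcium channels of the endoplasmic reticulum and protein kinase C. Of 24 genes of receptor signalling 23 were tested, 0 were called lower and 2 higher, beside 8.93% and 9.24% of all tested genes, so the share called higher is near that of all genes. Their median log2 fold change was 0.23, and at a fold limit of 1.5 the counts were 1 lower and 5 higher (18.9% of all tested genes in each direction). PLCB3, a phospholipase that Gq activates, had an RPKM of 17.7 and 17.6 in shCtl and 43.5 and 42.6 in shM2-3 (1.35 on the log2 scale). PLCB1, of the same family, reached 1.04, and dropped below the fold limit without shCtl replicate 1 (0.942) or shM2-3 replicate 1 (0.944), and with limma on log2(RPKM + 0.1) (0.959) or log2(RPKM + 1) (0.821). The Gq gene GNAQ itself was at -0.17 (95% interval -0.35 to 0.01) and GNA11 at 0.80, neither called.

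Regulators that end receptor signalling were read from a list of 12 genes. Of the 10 tested, 3 were called lower and 2 higher, where 8.93% of all tested genes were called lower and 9.24% higher. RGS2, which shortens Gq signals, rose from an RPKM of 7.16 and 8.44 to 50.6 and 53.6 (log2 fold change 2.80, 95% interval 2.62 to 2.99). RGS4, of the same family, fell from 19.1 and 20.7 to 2.63 and 2.97 (-2.77, 95% interval -2.94 to -2.59). The edgeR adjusted p was 3.54e-12 for RGS2 and 2.55e-12 for RGS4.

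Of the remaining regulators, RGS16 fell (-1.39). The arrestin genes split, with ARRB1 higher at 1.11 and ARRB2 lower at -1.01. ARRB1 was at 0.79 and not called on the log2(RPKM + 1) scale. ARRB2 lay at the fold limit and was not called without shCtl replicate 1 (-0.978) or shM2-3 replicate 1 (-0.983).

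Other vasoactive peptide systems were read from a list of 30 genes, of which 24 were in the tables and 9 were tested, with 4 called lower and 4 higher (8.93% and 9.24% over all tested genes). Of these 9, 4 passed the expression limit only through the group where they were high and so had to differ, and nothing is read from the count. Peptide genes other than EDN1 were among those lower. APLN, the gene of the vasodilator apelin, fell from an RPKM of 7.06 and 7.82 to 0.650 and 0.550 (log2 fold change -3.56, 95% interval -3.88 to -3.24). ADM, which encodes adrenomedullin, fell from 7.04 and 7.60 to 2.57 and 1.68 (-1.71, 95% interval -2.13 to -1.28).

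NPR3, the clearance receptor of the natriuretic peptides, fell by 1.33 on the log2 scale. NOS3, the endothelial nitric oxide synthase that ETB signalling activates, fell from an RPKM of 2.84 and 2.55 to 0.968 and 1.10 (-1.32). On the log2(RPKM + 1) scale NOS3 changed by -0.86 and was not called.

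Among the genes called higher were members of the kinin, angiotensin and natriuretic peptide systems. BDKRB2, the bradykinin B2 receptor gene, had 10 and 11 counts in the controls against 617 and 585 after knockdown (log2 fold change 5.68, 95% interval 5.27 to 6.09). AGT, the angiotensin precursor gene, had 0 counts in both controls and 70 and 75 after knockdown, which is at least 21.9-fold higher when each control library is set to 3 counts. NPR2, a natriuretic peptide receptor gene, rose by 1.26, and by 0.71 on the log2(RPKM + 1) scale, where it was not called.

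BDKRB1, the inducible kinin receptor gene, was the tested gene of this list that was not called (0.14, 95% interval -0.71 to 0.98). The edgeR adjusted p was 8.34e-11 for APLN, 3.39e-06 for ADM, 3.43e-09 for NPR3, 2.14e-06 for NOS3, 9.18e-12 for BDKRB2, 2.50e-06 for AGT and 5.76e-05 for NPR2. BDKRB2 and AGT passed the expression limit only through shM2-3 and APLN only through shCtl. Tested without the limit, BDKRB2 (5.65), APLN (-3.59) and AGT were called in the same direction.

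**Figure D3:**
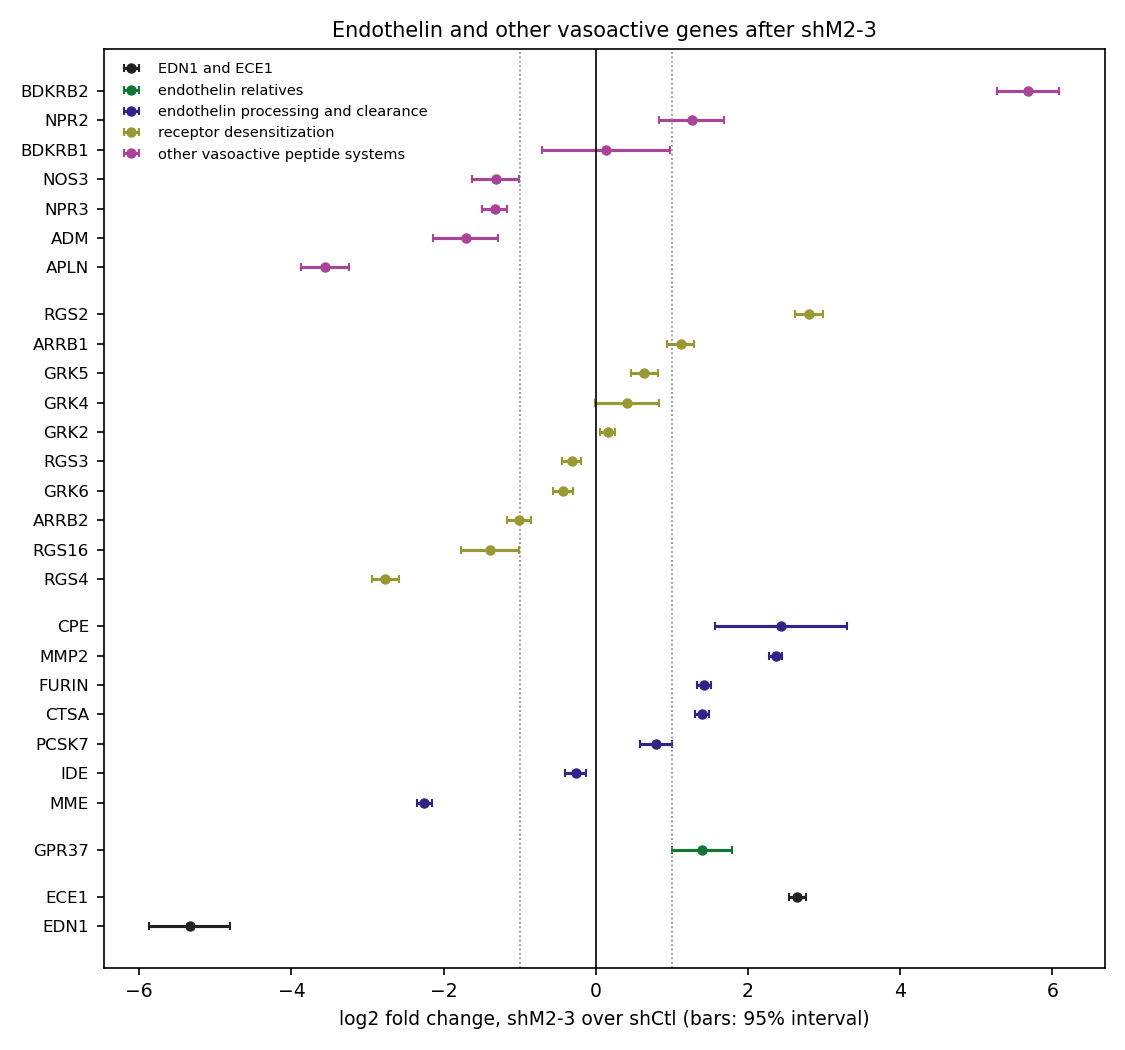
Log2 fold change (shM2-3 over shCtl, points) with 95% intervals (bars) for EDN1, ECE1 and tested genes of the related lists, with dotted lines at a 2-fold change. EDN1 (-5.34) lies lowest, APLN (-3.56) is the next peptide gene, and ECE1 (2.65) lies on the side of FURIN, MMP2 and CTSA. AGT, with 0 counts in shCtl, is left out.

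Genes around each member were read next, since neighbouring genes can share regulatory sequence. Within 1000000 bases of the EDN1 start, 4 genes were tested, and 2 were called lower and 0 higher, beside 8.93% and 9.24% of all tested genes. TMEM170B was 1 of the 2 and passed the expression limit only through shCtl, so nothing is read from the count. ADTRP, which starts at -483 kb (upstream) and encodes an androgen-responsive membrane hydrolase, had an RPKM of 12.5 and 12.2 in shCtl and 2.87 and 2.22 in shM2-3. Its log2 fold change was -2.20 (95% interval -2.49 to -1.92).

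TMEM170B, at -753 kb, encodes a membrane protein and had 2.60 and 2.55 against 0.573 and 0.542 RPKM (-2.14, 95% interval -2.39 to -1.89, and -2.17 when all genes were tested without the limit). HIVEP1, the nearest tested gene at -282 kb, encodes a zinc finger factor and was not called (-0.02, 95% interval -0.21 to 0.16). PHACTR1, 426 kb downstream, encodes an actin regulator and was at -0.87 (95% interval -1.12 to -0.62), within the fold limit. The edgeR adjusted p was 4.37e-09 for ADTRP, 1.68e-09 for TMEM170B, 0.808 for HIVEP1 and 1.53e-05 for PHACTR1.

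Around EDNRA 1 of 5 tested neighbours was called lower, around EDNRB 1 of 6 and around ECE1 3 of 15, and 0 were called higher. NR3C2, the gene called near EDNRA, and SH2D5, 1 of those near ECE1, passed the expression limit only through shCtl. Over all tested genes 8.93% were called lower and 9.24% higher, and nothing is read from these counts.

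**Figure D4:**
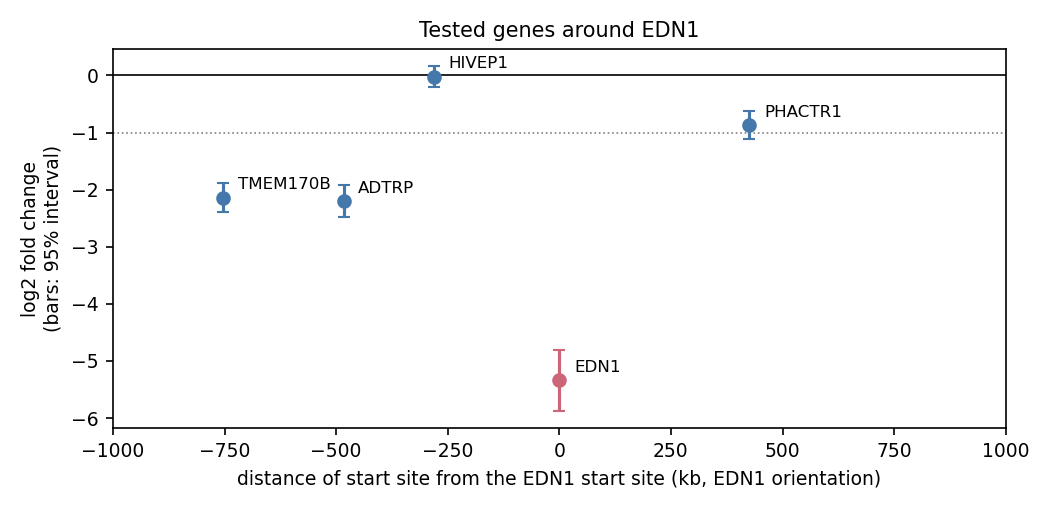
Log2 fold change with its 95% interval of EDN1 and the 4 tested genes within 1000000 bases of it, against the distance between start sites in kb (negative is upstream of EDN1). TMEM170B and ADTRP lie near -2.14 and -2.20, the nearer HIVEP1 at -0.02 and PHACTR1 at -0.87.

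The genes most like EDN1 in pattern were found by the Euclidean distance of centred log2 CPM (counts scaled by library size) over the 4 libraries, among 7452 genes with a mean shCtl RPKM of at least 5. The nearest were CPA4, DKK1, CCBE1 and CCN1, at distances of 0.633, 0.669, 0.707 and 0.751. CPA4, a carboxypeptidase gene, went from 618 and 641 RPKM to 17.5 and 16.6. DKK1, a secreted Wnt inhibitor gene, went from 250 and 254 to 6.14 and 5.98, and CCN1, a secreted matrix protein gene, from 975 and 1017 to 33.7 and 31.0. CCBE1, a secreted factor gene of lymphatic growth, went from 61.4 and 62.1 to 1.82 and 1.78. The measure uses the same contrast that chose EDN1, so these values are a description.

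MAML2, the targeted gene, had an RPKM of 8.61 and 8.26 in shCtl and 3.11 and 3.0 in shM2-3. The labels and the target thus went together, though this row can hold reads of the YM fusion as well. Markers were read as summed RPKM to see which cells the libraries resemble. The epithelial list was at 651 and 650 in shCtl and 330 and 334 in shM2-3, carried by KRT7, KRT8 and KRT18, of which KRT7 and KRT8 were called lower. The epithelial markers EPCAM, CDH1 and KRT19 had at most 6, 4 and 13 counts in any library. Of the clear cell markers, NAPSA and PAX8 stayed below an RPKM of 0.4, so the labelled subtype was not seen in these.

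Endothelial cells are the usual source of EDN1, and the sum of 10 endothelial markers was 79.5 and 82.8 in shCtl and 66.3 and 67.2 in shM2-3. TIE1 made up most of it, with 65.6 and 67.0 against 57.4 and 58.4 RPKM. CDH5 was at 9.14 and 10.2 against 4.17 and 4.03, and ROBO4 at 4.08 and 4.33 against 2.0 and 2.44. VWF, TEK and CLDN5 stayed below an RPKM of 0.1 in every library. Of the 4 tested, CDH5 was called lower (-1.17), PECAM1 was called higher (5.07, from 6 and 5 counts to 256 and 163), and TIE1 and ROBO4 were not called. PECAM1 passed the expression limit only through shM2-3 and was at 5.04 without it. EMCN, below the limit, went from 0 and 8 counts to 62 and 53, and was called higher when all genes were tested (3.64). In that fit VWF, with 6 and 18 counts against 2 and 0, was called lower (-3.60), and KDR was not called. By their labels all libraries came from the ES-2 line, and a part of other cell types in the endothelin results was not tested.

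For ETB, known from melanocytes and the neural crest, MITF was called lower (-1.48), while DCT and SOX10 had at most 5 counts. The list summed to 4.73 and 4.64 RPKM against 2.02 and 1.92, most of it MITF (4.04 and 4.09 against 1.36 and 1.43). PMEL (-0.46), MLANA (-0.04) and TYRP1 (1.36), below the limit, were not called when all genes were tested. For ETA, known from smooth muscle, the sum over 8 markers was 5.35 and 5.46 against 4.69 and 5.29, and ACTG2 and DES had at most 5 counts. PDGFRB was called higher (1.23), but it passed the limit only through shM2-3, where it was high. Tested without the limit, PDGFRB was called in the same direction. CNN1, below the limit, went from 30 and 30 counts to 14 and 10, and was called lower when all genes were tested (-1.49). Leukocyte markers summed to 58.3 and 57.4 against 41.1 and 40.0, nearly all CD68, with PTPRC at 3 counts or fewer. CD14, below the limit, went from 3 and 4 counts to 42 and 37, and was called higher when all genes were tested (3.28).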

How the data were processed

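RNA-seq of ES-2 cells (2 shCtl and 2 shM2-3 libraries, groups from the labels) was analysed. The authors aligned paired reads of 150 bases to hg38 with HISAT2 2.0.4, removed ambiguous reads and alignments of a mapping quality below 10, and counted reads per RefSeq gene with Partek 7.18. The deposited values are estimated counts (not normalized; 42.4% to 48.6% of the values in a library, zeros included, are exactly whole) and RPKM, computed by the authors from these counts. Totals ran from 20051083 to 23978660 counts per library. Intervals on count ratios are exact and cover counting error only.

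Estimated counts were rounded to whole numbers, since the planned test expected whole counts, and tested with edgeR 4.0.16 (TMM, glmQLFit, glmQLFTest) in R 4.3.3. The test covered the 12157 genes whose RPKM passed 1 in any library, with Benjamini-Hochberg adjustment. Calls needed an adjusted p no higher than 0.05 and a change of at least 2-fold. The fit was tested on simulated data, and no outcome of that is given here. The biological coefficient of variation was 4.85%. Alternatives were DESeq2 1.42.0, total counts, other filters, limma 3.58.1 on log2(RPKM + 0.1) or log2(RPKM + 1), a fold limit of 1.5, a replicate block, and leaving out each library.

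Members, gene lists and tests were chosen with earlier results of these data known. Named were all members, called relatives, processing genes and vasoactive genes, the called genes with the greatest change in the other lists, the tested genes near EDN1, the 5 genes most like it, and MAML2. Not every gene so named is reported here. GNAQ, GNA11, NR3C2, SH2D5 and single marker genes were named after their values were seen, as were genes given as not called. Positions come from GENCODE on hg38 and promoters from RefSeq GRCh38.p14, with windows found for EDN1, EDNRA, EDNRB and ECE1.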

Additional observations from a re-analysis of the deposited data

How the results depend on the processing

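Over 38 named genes and 12 alternatives each, 443 of 456 log2 fold changes kept their direction and their side of the limits, 10 lost the call, 1 gained it and 2 turned. Both that turned were HIVEP1, at 0.0177 without shCtl replicate 1 and 0.0688 without shM2-3 replicate 2. Over the libraries left out HIVEP1 ranged from -0.12 to 0.0688. The alternative with a fold limit of 1.5 reuses the main fit, so only its calls could differ, not its fold changes. EDN1 and the genes most like it were picked by their large fall, so the share that kept their calls is a description. The fold change of EDN1 was -2.94 with limma on log2(RPKM + 1) and -4.89 on log2(RPKM + 0.1), and ran from -6.05 to -4.90 with each library left out. ECE1 ran from 2.58 to 2.72. For EDNRA the log2 ratio of mean RPKM ran from 1.25 to 2.49, the lowest without shCtl replicate 1, and no value could be had without shCtl replicate 2. For EDNRB it ran from -1.32 to -1.10. Against 1086 genes called lower and 1123 higher in the main fit, the calls numbered 2302 lower and 2296 higher at a fold limit of 1.5. They numbered 724 lower and 596 higher with limma on log2(RPKM + 1), and 1523 lower and 1658 higher without the RPKM limit. With each library left out they ran from 1069 to 1088 lower and 1099 to 1162 higher. Total-count scaling shifted the median log2 fold change by -0.04. With a replicate block EDN1 was at -5.34 and ECE1 at 2.65. Same-numbered libraries deviated together with a correlation of 0.0237 across genes, so the numbers were not taken to pair them. Depth limits EDNRA and, after knockdown, EDN1.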

Other observations

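Among 25 transcription factor genes known to act on EDN1, 24 were tested, of which 2 were called lower and 0 higher, with a median log2 fold change of 0.16. These shares are near or below the 8.93% and 9.24% of all tested genes, and at a fold limit of 1.5 the counts were 6 lower and 5 higher (18.9% of all tested genes in each direction). JUN, an AP-1 gene, fell from an RPKM of 148 and 158 in shCtl to 42.9 and 44.5 in shM2-3 (log2 fold change -1.74), and FOSL1, another, fell from 301 and 307 to 100 and 101 (-1.53). HIF1A, whose product binds the hypoxia core, lay at the fold limit, at -0.98 and not called, but called at -1.01 without the RPKM limit. With total counts and on both limma scales 3 of these genes were called lower. JUND was at 0.95, while GATA2 was at -0.71. The edgeR adjusted p was 6.69e-13 for JUN and 5.89e-13 for FOSL1.

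Of the 7 genes of TEAD factors and their coactivators, 2 were called lower and 2 higher, beside 8.93% and 9.24% of all tested genes. TEAD4 fell from an RPKM of 20.1 and 23.1 to 8.96 and 8.97 (-1.21), and MAML2 itself was the other. TEAD2 rose from 3.26 and 3.4 to 11.8 and 10.7, and WWTR1, the gene of the YAP1 paralog TAZ, from 9.21 and 9.32 to 31.1 and 30.8, each by 1.81 on the log2 scale. TEAD1 (0.61), TEAD3 (0.02) and YAP1 (0.42) were not called. By the paper, the YM transcript joins early exons of YAP1 to later exons of MAML2. The rows of YAP1 and MAML2 can therefore hold reads of the fusion beside those of the native genes, and these were not told apart.

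Some vasoactive and related genes below the expression limit also differed in counts. AGTR1, the angiotensin receptor gene, had 24 and 38 counts in the controls against 7 and 9 after knockdown. ACE, the angiotensin-converting enzyme gene, had 9 and 10 against 53 and 82, and KEL, a relative of ECE1 that can cleave endothelin precursors, had 5 and 2 against 22 and 13. These genes were chosen after their values were seen.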
